A study of Mus musculus with 4 samples.

Results

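Conventional dendritic cells of type 1 (cDC1) were picked out of single-cell RNA sequencing of mouse prostate tumour models, and made up 276 of the 31165 cells kept. A cell was kept with at least 500 unique molecular identifiers (UMIs, each counting 1 captured RNA molecule), no fewer than 200 genes and a mitochondrial share of at most 20%. It was counted as cDC1 when it held at least 2 UMIs over Xcr1 and Clec9a, at least 50 UMIs of the class II genes H2-Aa, H2-Ab1 and Cd74 and fewer than 10 of C1qa, C1qb and C1qc per 10000 UMIs, no UMI of Cd79a or Cd3e, and fewer than 5 UMIs over Ccr7 and Fscn1. These 12 genes chose the cells, so where the level of one is given, it is a description. The study compared 4 groups of mice with 1 library each. In Trp53-intact and Trp53-intact ADT mice Trp53 was not deleted, and in Trp53-deleted and Trp53-deleted ADT mice it was deleted. The labels mark the deletion PC, which is read here as only in the prostate. The labels leave ADT unexplained, and androgen deprivation therapy is assumed. The mice were 4, 5.5, 3.5 and 5.5 months old in that order, which is the order of all values given by library below. All groups share a further part of their genotype, which is not reported here. Which cells carry out the deletion, and how many mice went into a library, are not given in the sources used here. The mice given ADT were also the older ones, so the effects of ADT, of age and of a single library cannot be told apart. Those of genotype and of a single library cannot either, and without ADT the genotypes also differed in age (4 and 3.5 months).

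Dendritic cells take up material in tissues, break it into peptides and show these to T cells. The cDC1 lineage, which depends on the transcription factors Irf8 and Batf3, is known for cross-presentation, the display of peptides from engulfed dead cells on MHC class I to CD8 T cells. Clec9a binds filamentous actin exposed by dead cells, and Xcr1 is the receptor for the chemokine Xcl1, which natural killer and CD8 T cells release. The cDC2 lineage, which carries Sirpa, mainly presents to CD4 T cells on class II, and either lineage can turn into migratory mature dendritic cells that carry Ccr7.

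The libraries held 58088678 to 148030357 UMIs in 7806 to 10595 cell barcodes, with a median of 4081 to 5562 UMIs per kept cell. The cDC1 cells were deeper, with medians of 16862, 21281, 20068 and 17485 UMIs. The share of barcodes over the mitochondrial limit ran from 8.39% to 25.7% and was highest in Trp53-deleted. Trp53 RNA in cDC1 cells stood at 48.7, 63.5, 64.6 and 65.2 CPM. The deletion is read from the labels as restricted to the prostate, so this level says nothing of whether it took place in tumour cells. Levels are CPM, the UMIs of a gene summed over the cells of 1 class in 1 library and scaled to 1000000 UMIs of that class. The ± values are standard deviations over the 4 libraries, which differ in genotype and treatment, so they hold those differences too.

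Most members carried both defining receptors. Of the 276 cells, 235 held Xcr1 and Clec9a together, 16 Xcr1 only and 25 Clec9a only, with a median of 10 UMIs over the pair. Xcr1 (ENSMUSG00000060509, chr9:123852315-123862029 on the minus strand, mm10) was measured at 358 CPM in Trp53-intact, 467 in Trp53-intact ADT, 448 in Trp53-deleted and 336 in Trp53-deleted ADT. Clec9a (ENSMUSG00000046080, chr6:129408862-129424763 on the plus strand) stood at 232, 254, 351 and 200.3 CPM, in the same range in every library. The 19 members with exactly 2 UMIs over the pair lay just inside the limit, and 43 cells with 1 UMI that met the other limits lay just outside. Inside, Irf8 was at 1156 CPM, Naaa at 846 and the cDC2 marker Cd209a at 25.5, whereas outside they were at 663, 343 and 667 CPM. The 19 cells that met every limit but held 5 or more UMIs of Ccr7 and Fscn1 were set aside as mature, 6.44% of the 295 before that step, and 14.6% in Trp53-intact ADT (6 of 41 cells). No barcode sequence among cDC1 cells was shared between libraries.

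The 250 bases before the transcription start of the pair of genes that define the cells are shown because neither held any of the motifs searched. They come from RefSeq on GRCm38.p6, all in lower case since no motif stood in them, and read 5′ to 3′ on the gene's own strand. Xcr1 lies at chr9:123862030-123862279 on the minus strand and Clec9a at chr6:129408612-129408861 on the plus strand.
Xcr1: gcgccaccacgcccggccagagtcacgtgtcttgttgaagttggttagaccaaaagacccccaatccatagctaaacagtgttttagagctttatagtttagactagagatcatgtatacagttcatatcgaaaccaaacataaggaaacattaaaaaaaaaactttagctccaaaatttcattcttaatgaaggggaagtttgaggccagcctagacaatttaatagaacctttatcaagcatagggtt
Clec9a: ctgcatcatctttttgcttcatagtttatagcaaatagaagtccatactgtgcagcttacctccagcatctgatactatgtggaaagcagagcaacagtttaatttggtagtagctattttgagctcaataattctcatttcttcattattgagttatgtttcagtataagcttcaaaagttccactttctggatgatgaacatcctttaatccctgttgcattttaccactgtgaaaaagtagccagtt
The motifs were TGANTCA (the AP-1 site to which Batf3 with a Jun partner is known to bind), the interferon-stimulated response element core, the Ets-Irf composite element and GAGGAAGT (a PU.1 site), each searched on both strands. Over all 32851 promoters of the same length they were found in 6.75, 2.98, 2.30 and 2.44%. Of the 15 genes with the largest excess in cDC1 over cDC2, 11 had entries with 15 promoters, and 1 of these, that of Cxcr3, held GAGGAAGT, while 0 held the others. That a motif was missing says only that its letters are not in this window.

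The label of these cells was checked on genes outside the rule, and the cells carried the cDC1 programme. They were set against cDC2 cells of the same libraries, 315 cells under the same limits with no Xcr1 or Clec9a UMI and at least 2 Cd209a UMIs. Of the 24 measured genes of a 27-gene cDC1 list, 20 were higher in cDC1, 3 were lower and 1 was not called, whereas of all 7595 genes fitted 11.2% were called higher and 14.0% lower. The list's median log2 fold change was 2.88 against 0.018 over all genes, and the counts were the same with each library left out. Calls are edgeR quasi-likelihood tests on summed counts with the library as a block and a Benjamini-Hochberg adjusted p under 0.05, and each library gives both classes, so these p-values measure the spread of the class difference over 4 libraries.

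The transcription factors of the lineage stood apart to different degrees. Irf8 (ENSMUSG00000041515, chr8:120736358-120756694 on the plus strand) was measured at 1414 CPM in Trp53-intact, 1172 in Trp53-intact ADT, 2365 in Trp53-deleted and 1210.1 in Trp53-deleted ADT, and in cDC2 at 103, 59.2, 116 and 78.1 CPM. The lowest cDC1 library lay well above the highest cDC2 library (1541 ± 560.1 CPM in cDC1 against 89.1 ± 25.4 in cDC2, log2 fold change 4.09, adjusted p 2.75e-07). Batf3 differed less, with 158, 160.1, 177 and 198 CPM in cDC1 and 99.3, 64.1, 112 and 42.6 CPM in cDC2 (log2 fold change 1.23, adjusted p 0.00452). Id2, which blocks E proteins, and Zbtb46, a factor of classical dendritic cells, were also higher, by 1.89 and 1.17 on the log2 scale. The Zbtb46 call was lost without the library block (edgeR adjusted p 0.0628). Zeb2, which opposes the cDC1 fate, was lower at 36.9 ± 24 against 404 ± 146 CPM, as was Nfil3 at 43.3 ± 13.5 against 126 ± 27.5 CPM, although Nfil3 is needed for cDC1 development. Bcl6 was not called (log2 fold change 0.31, adjusted p 0.31).

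Most surface and lysosomal genes of the list were higher in cDC1 as well. Naaa, a lysosomal lipid amidase, stood at 1246, 1457, 1845 and 1264 CPM in cDC1 and 264, 155, 454 and 201 CPM in cDC2, with no overlap (log2 fold change 2.54, adjusted p 1.30e-05). Itgae, the integrin chain CD103, was measured at 213 ± 37 CPM in cDC1 against 6.58 ± 5.13 in cDC2, a log2 fold change of 5.04. Cadm1, an adhesion molecule that binds a receptor on cytotoxic T cells, was at 148 ± 50.5 against 6.24 ± 4.91 CPM, and Ppt1, a lysosomal thioesterase, at 849 ± 128 against 86.5 ± 12.6 CPM. The integrin chain Itgax (CD11c) was the 1 surface gene of the list that was lower in cDC1, at 57.5 ± 9.95 against 125 ± 34.1 CPM (log2 fold change -1.05, adjusted p 0.00388). The plot of marker levels by class shows these genes in every library.

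Gcsam, a signalling adaptor first described in germinal centres, had the largest fold change among higher genes called on the same side in every library. It was measured at 142, 126, 111 and 84.5 CPM in cDC1 and had no UMI in 315 cDC2 cells, which makes it at least 163-fold higher when 3 counts over the cDC2 class are taken as the limit. Cyp8b1, a sterol hydroxylase best known from bile acid synthesis in the liver, stood at 12.8, 29.1, 31.2 and 11.3 CPM and also had none in cDC2, at least 24.8-fold. Snx22, a sorting nexin, was at 69.9 ± 18.6 against 0.939 ± 1.10 CPM (log2 fold change 6.81, adjusted p 5.38e-06), and Gramd2 and Sema4f were 6.34 and 5.28 higher on the log2 scale. The annotated transcripts A530099J19Rik, Gm1965 and 2310031A07Rik, of no known role, were higher by 6.31, 5.62 and 5.03. In the other direction the genes with the largest difference included C-type lectins and Sirp receptors of myeloid cells. Sirpb1a had no UMI in 276 cDC1 cells and was at least 82.5-fold lower, and Mgl2, Clec10a, Clec4a1, Clec4a3, Clec4n, Mrc1 and Sirpa were lower by -5.27 to -7.11. Sirpb1a and Sirpb1c, and the Clec4a genes, are close copies of one another, so reads could be split between them. Retnla, a secreted resistin-like protein, fell from 759.7 CPM in cDC2 to 5.80 in cDC1, Ccl9 from 617 to 10.5 and Osm (oncostatin M) from 99 to 2.48. Flrt3, Abca9 and Fcrls were lower as well (-6.29, -6.19 and -5.27).

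The machinery of cross-presentation did not move one way. Of 33 measured genes of a 36-gene list, 12 were higher in cDC1 than in cDC2 and 9 lower, with a median log2 fold change of 0.047. Without Trp53-deleted or without Trp53-deleted ADT, 6 were lower and 11 higher. The higher genes included some that cut peptides and some that carry them to class I. Wdfy4, a protein needed for cross-presentation of cell-bound antigen, was measured at 432, 606, 643 and 548 CPM in cDC1 and 54, 133, 127 and 87.5 CPM in cDC2, so every cDC1 library exceeded every cDC2 library (log2 fold change 2.57, adjusted p 2.77e-06). The immunoproteasome subunits Psmb9 and Psmb8 were higher by 1.60 and 0.89, the proteasome activator Psme1 by 1.12 and Psme2 by 0.56, and the peptide transporters Tap2 and Tap1 by 1.27 and 0.89. Of the small GTPases that direct vesicles, Rab7b, Rab11a and Rab43 were higher (3.65, 1.24 and 0.90). The chaperone Pdia3 was higher by 0.56.

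The lower genes included some of oxygen radical production and of lysosomal digestion. Cybb, the catalytic chain of the phagocyte NADPH oxidase, stood at 17.7, 33.1, 25.4 and 22.6 CPM in cDC1 and 448, 304, 703 and 433 CPM in cDC2 (log2 fold change -4.24, adjusted p 2.79e-06). Its partners Cyba and Rac2 were lower by -0.53 and -0.76, and another partner, Ncf4, was higher by 0.73. The lysosomal proteases Lgmn and Ctsd were at 25.8 ± 5.93 against 122 ± 21.6 CPM and 41.2 ± 16 against 159.9 ± 65.8 CPM. Snap23 and Canx were also lower, by -0.49 and -0.38, and the translocon genes Sec22b, Sec61a1 and Sec61b were not called (-0.064, 0.22 and -0.0064).

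Class I genes went both ways against cDC2. Of 14 class I genes, Tap1 and Tap2 were higher, H2-K1, H2-D1, H2-Q4 and B2m were lower, by -0.43 to -0.52, and 8 were not called. The lower calls were few without some libraries: 0 without Trp53-deleted, 1 without Trp53-intact and 2 without Trp53-deleted ADT. Against macrophages the same 2 genes were higher and 4 lower, B2m by -1.08. Of class II genes outside the rule, H2-Ob, part of a brake on peptide loading, was higher than in cDC2 (0.91), and H2-Eb1, H2-DMb2, Ctss and Ctsl were lower (-0.44, -1.63, -1.70 and -0.72).

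Receptors for microbes and dead cells included genes that were higher and genes that were lower in cDC1. Tlr3, which senses double-stranded RNA, was measured at 209, 165, 264 and 152 CPM in cDC1 and 3.65, 4.93, 6.33 and 9.33 CPM in cDC2 (log2 fold change 4.87, adjusted p 2.49e-06). Tlr11 and Tlr12, the receptors for profilin of parasites, were higher by 2.84 and 5.39, whereas Tlr1 and Tlr2, which sense bacterial lipoproteins, were lower (-4.84 and -3.64). The RNA sensors Ddx58 and Ifih1 were lower too (-1.93 and -1.04). Of uptake receptors, Cd36 (117 ± 38 CPM in cDC1 against 6.71 ± 4.58 in cDC2), Ly75 (DEC-205, 26.2 ± 3.97 against 0.292 ± 0.583 CPM), Havcr2 (TIM-3, 1.57 on the log2 scale) and Clec12a (1.18) were higher, and Mrc1 and Axl were lower (-5.56 and -1.81). In all, 6 of 19 measured genes of this list were higher and 6 lower. Clec12a was the 1 gene of 23 on a list of cDC2 genes that was higher in cDC1, while 21 were lower.

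Chemokine and growth factor receptors were mostly lower than in cDC2, with Cxcr3 as the main exception. Cxcr3 (ENSMUSG00000050232, chrX:101731535-101734269 on the minus strand), the receptor for Cxcl9 and Cxcl10, was measured at 68.4, 58.2, 96.9 and 73.2 CPM in cDC1 and 4.38, 0, 6.33 and 2.33 CPM in cDC2, with no overlap (log2 fold change 4.50, adjusted p 8.18e-06). Flt3, whose ligand drives dendritic cell development, and Kit were higher by 0.97 and 0.86. The other 13 called genes of the 22 measured were lower, among them Ccr1, Cx3cr1, Csf1r and Cxcr4 (-5.07, -4.14, -4.08 and -1.50). Cxcr3 was also higher than in mature cells (4.55) and macrophages (3.48).

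Cytokine and interferon-response genes were more often lower than higher against cDC2. Of 19 measured cytokines and chemokines 11 were lower and 3 higher, and of 27 interferon-response genes 14 were lower and 2 higher, with medians of -1.09 and -1.08. Il1b was measured at 667, 1363, 232 and 557 CPM in cDC1 and 4541, 5135, 2639 and 3147 CPM in cDC2 (log2 fold change -2.63, adjusted p 2.71e-05). Il6, Cxcl2, Ccl5 and Cxcl10 were lower by -4.28, -3.30, -3.89 and -2.95, and the guanylate-binding proteins Gbp2, Gbp3 and Gbp7 by -2.53, -2.81 and -3.12. Higher were Il18 (1.19), Il16 (0.81) and Cxcl9 (log2 fold change 2.38, adjusted p 0.0323). Cxcl9 stood at 41.3, 83.4, 147 and 40.6 CPM in cDC1, with 61.9% of the Trp53-intact and 87.4% of the Trp53-deleted UMIs from 1 cell each. Its call was lost without Trp53-intact, without Trp53-intact ADT and without Trp53-deleted (edgeR adjusted p 0.0900, 0.0959 and 0.151). It was also lost without the library block (0.0531). The number of higher cytokines was 1 without Trp53-intact and 1 without Trp53-intact ADT. Cxcl9 was also among the higher interferon-response genes, and of that list 0 were called higher without Trp53-intact or without Trp53-deleted.

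Most ligands that act on T cells were lower as well. Of 13 measured costimulation and checkpoint genes, 8 were lower and 2 higher. Tnfsf9 (4-1BB ligand) was at 38.4 ± 28.1 against 431 ± 158 CPM, Cd40 at 10.4 ± 6.92 against 40.6 ± 12.9 CPM and Cd274 (PD-L1) at 12.3 ± 9.08 against 31.2 ± 17.1 CPM. Cd86 was not called (log2 fold change 0.33, adjusted p 0.218). The inhibitory receptor Btla, at 167 ± 15.8 CPM in cDC1 against 22.5 ± 9.82 in cDC2, and Havcr2 were the higher ones. Dissociation genes moved beside these groups: 12 of 28 immediate early and heat shock genes were lower in cDC1 and 3 higher (Nfkbia -1.90, Socs3 -2.07), and their part in the cytokine difference was not tested.

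**Figure D1:**
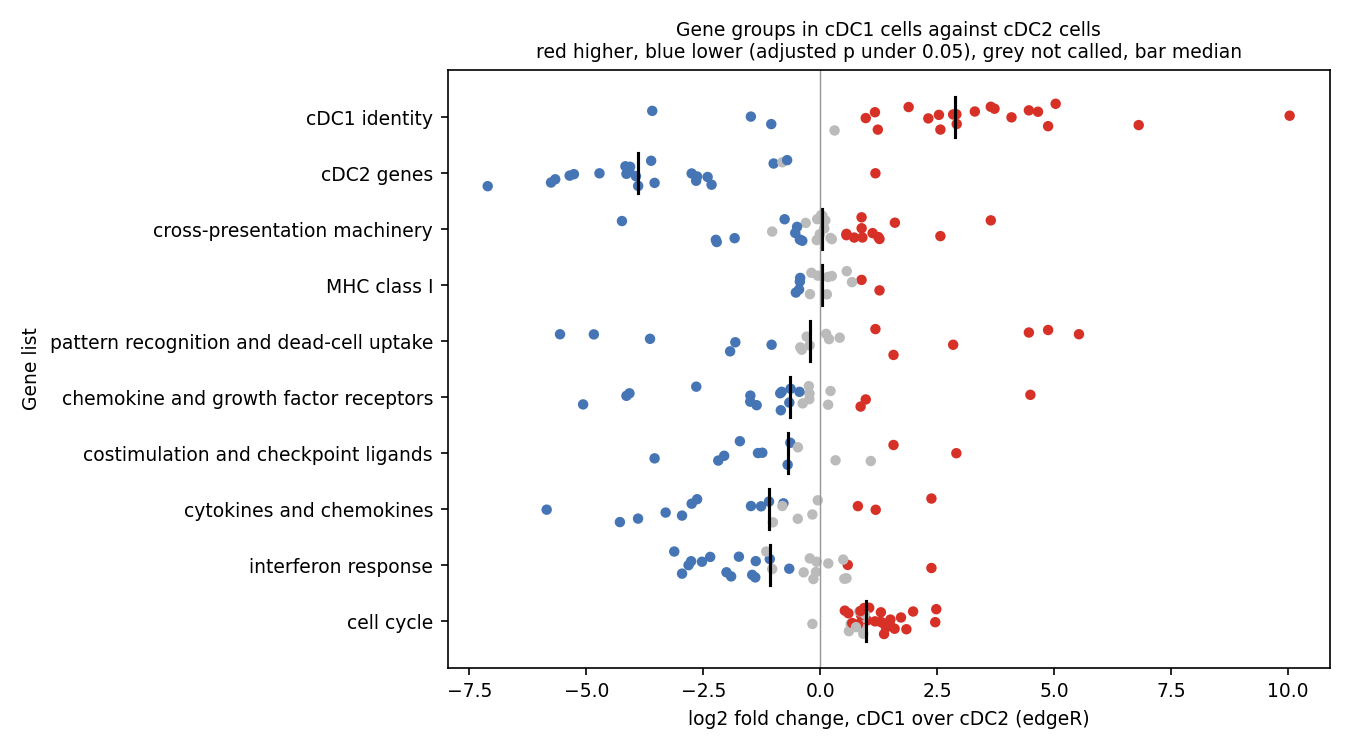
Log2 fold change of each measured gene, cDC1 over cDC2 (edgeR), grouped by list, red for higher and blue for lower at an adjusted p under 0.05, grey for not called, with the list median as a bar. Lineage and cell cycle genes lie to the right (medians 2.88 and 0.98) and cytokine and interferon-response genes to the left (-1.09 and -1.08).

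Against mature dendritic cells, 225 cells with 5 or more UMIs of Ccr7 and Fscn1, the cDC1 cells held less RNA of nearly all maturation genes and more of most lineage genes. Of 28 measured maturation genes outside the rule 27 were lower and 0 higher, and of 24 cDC1 genes 16 were higher and 3 lower, where 10.7% of 6581 genes were called higher and 14.0% lower. The mature class may hold cells of either lineage. Ccl22 stood at 15.7, 37.1, 5.77 and 3.99 CPM in cDC1 and 652, 578, 2149.5 and 440.2 CPM in mature cells (log2 fold change -5.94, adjusted p 0.000754). Apol7c and Nudt17 had no UMI in cDC1 and were at least 149.9-fold and 183-fold lower, Mreg at least 70.3-fold and Fxyd2 at least 57.9-fold. Il4i1, an enzyme that breaks down phenylalanine and tryptophan, was at 1.15 ± 1.62 against 486 ± 221 CPM, Ccl5 at 11.8 ± 6.69 against 2972 ± 2027 CPM, H2-M2 at 0.246 ± 0.492 against 165 ± 113 CPM and Flrt3 at 0.657 ± 0.770 against 123 ± 55.3 CPM. Bcl2l14 was the maturation gene not called (log2 fold change -1.73, adjusted p 0.0762).

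The lineage factors Batf3, Id2, Zbtb46 and Flt3 were not called between cDC1 and mature cells (0.52, -0.26, -0.12 and 0.53). With Trp53-deleted left out, Batf3 and Flt3 were called higher in cDC1 (edgeR adjusted p 0.0352 and 0.0327). Irf8 was higher in cDC1 (1541 ± 560.1 CPM in cDC1 against 381 ± 203 in mature cells, log2 fold change 2.04, adjusted p 0.00307). Of the genes with the largest difference Tlr12, Tlr3, Gramd2, Cxcr3, Adora3, Prr5, Snx22 and A530099J19Rik were higher by 4.01 to 4.99. Of 14 class I genes 9 were lower and 0 higher, B2m by -1.30 and the class I activator Nlrc5 by -1.63. Of 10 class II genes outside the rule 5 were higher and 2 lower. The higher ones were the loading genes H2-DMa and H2-DMb1, H2-Ob, the ubiquitin ligase March1 that removes class II from the surface, and Ciita (1.01, 1.31, 1.24, 2.73 and 0.85), and the lower ones were the loading gene H2-DMb2 and the protease Ctss (-1.43 and -1.25). Il12b, the shared chain of a pair of interleukins, was at 32 ± 52.1 against 313 ± 161 CPM (log2 fold change -4.08, adjusted p 0.00612). Cd274, Pdcd1lg2 and Cd80 were lower by -4.04, -4.92 and -2.84. Of the interferon-response genes 12 of 26 were lower and 0 higher.

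Against 4543 macrophages, cells with at least 10 UMIs of the C1q genes per 10000, the lineage separation was wider. Of 24 cDC1 genes 21 were higher and 2 lower, where 21.4% of 9988 genes were called higher and 24.8% lower. Gcsam, Sept3, Snx22, Itgae, A530099J19Rik and Gm1965 were higher by 7.99 to 10.69, Gpr33, a chemoattractant receptor homologue, was at 13 ± 4.94 against 0.0130 ± 0.0259 CPM, and Cyp8b1, with no UMI in macrophages, at least 243-fold. Irf8 was at 1541 ± 560.1 against 231 ± 35.4 CPM (log2 fold change 2.77, adjusted p 4.97e-07). The formyl peptide receptors Fpr1 and Fpr2 and the complement receptor C5ar2 had no UMI in cDC1 and were at least 33.1-fold, 38.3-fold and 53.6-fold lower. Fxyd2, Rapsn, Chst7, Sirpb1a and Pald1 were lower by at least 30.8-fold to 54.9-fold in the same way. Mertk and Mrc1, receptors of macrophage uptake, were lower by -7.26 and -7.16. Of cross-presentation genes 13 were higher and 12 lower of 35, again with Psmb9, Psmb8, Tap1 and Tap2 higher (2.20, 1.60, 1.43 and 1.51) and Cybb, Ctsd and Lgmn lower (-4.69, -4.63 and -5.36). Of 23 cytokines 15 were lower, and the 3 higher ones were Il12b (32 ± 52.1 against 7.36 ± 9.12 CPM), Ccl22 (15.6 ± 15.2 against 2.69 ± 2.42 CPM) and Il18 (0.75). The Il12b call was lost without Trp53-intact ADT (1.30, edgeR adjusted p 0.0722) and without the library block (2.21, edgeR adjusted p 0.193). Of 32 interferon-response genes 22 were lower and Stat2 alone was higher (0.50).

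Genes of DNA replication and mitosis were higher in cDC1 than in each of the other classes. Against cDC2, 23 of 32 cell cycle genes were higher and 0 lower, against mature cells 24 of 31, and against macrophages 29 of 32. Without Trp53-deleted the count against cDC2 was 15, and against mature cells it was 7 without Trp53-deleted ADT and 11 without Trp53-intact ADT. Pclaf, a partner of the replication clamp, and Rrm2, which makes DNA precursors, differed most from cDC2 (log2 fold change 2.48, adjusted p 0.000148 and log2 fold change 2.46, adjusted p 0.000461). Mki67, present throughout the cycle, was measured at 125, 118, 273 and 200.3 CPM in cDC1 and 77.4, 122, 99.2 and 53.1 CPM in cDC2, which overlap (log2 fold change 1.05, adjusted p 0.0135).

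Counted by cell, 18.3, 14.3, 20 and 19.8% of cDC1 cells were cycling, meaning at least 2 UMIs over 9 cycle genes after each cell was thinned to 1500 UMIs. In cDC2 the shares were 8.33, 10.8, 5.13 and 5.04%, and in mature cells 9.57, 0, 0 and 2.33%. After thinning, the cDC1 share was higher in 4 of 4 libraries, by 10.7 ± 5.36 percentage points over cDC2 and 15.1 ± 4.87 over mature cells (n = 4, exact two-sided permutation test of paired differences, p = 0.125, the smallest p that 4 libraries allow). The share of 0 in mature cells of Trp53-intact ADT and Trp53-deleted rests on 35 and 27 cells and has upper limits of 10.0% and 12.8% (exact Clopper-Pearson). Unthinned, the cDC1 shares were 31.3, 22.9, 26.7 and 40.7%. Those of cDC2 were then 16.5, 24.3, 22.5 and 23.4%, and those of mature cells 22.4, 15.8, 0 and 39.5%. Without thinning, the cDC1 share in Trp53-intact ADT was thus below that of cDC2. Between libraries the thinned cDC1 intervals overlapped, from 4.81 to 30.3% in Trp53-intact ADT, the lowest share, and from 9.58 to 34.6% in Trp53-deleted, the highest.

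Cycling cDC1 cells, taken without thinning, were compared with the other cDC1 cells on lineage genes. Irf8 was at 1409 against 1525 CPM in 89 cycling and 187 other cells, Batf3 at 188 against 164 CPM, Wdfy4 at 528 against 526 CPM and Naaa at 1393 against 1376 CPM. Cadm1, Itgae, Ppt1 and the class II gene H2-Eb1 were lower in cycling cells in each of the 4 libraries, at 96.6 against 161 CPM, 169.8 against 245 CPM, 671 against 959 CPM and 6494 against 8482 CPM over all libraries. No test was made, since cycling cells also hold more RNA (median 22718 against 16476 UMIs) and cycle genes take part of the total.

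At full depth the cDC1 share of kept cells was lower with ADT in Trp53-intact mice and nearly the same with and without ADT in Trp53-deleted mice. In Trp53-intact it was 1.42% (1.17 to 1.70%), with ADT 0.452% (0.315 to 0.627%), in Trp53-deleted 0.790% (0.577 to 1.06%) and there with ADT 0.841% (0.669 to 1.04%), from 115, 35, 45 and 81 cells. The intervals are exact Clopper-Pearson at the 95% level and cover counting error only. The first does not overlap the others, and the last pair overlap widely. As a share of cDC1, cDC2 and mature cells together, cDC1 made up 35.1, 31.8, 39.8 and 30.6%, with intervals that all overlap (30.7 to 49.5% for the highest, 25.1 to 36.5% for the lowest). cDC2 cells numbered 97, 37, 40 and 141 and mature cells 116, 38, 28 and 43, so their shares of kept cells were also lower in Trp53-intact ADT than in Trp53-intact (0.477% (0.336 to 0.657%) against 1.20% (0.973 to 1.46%) for cDC2). Each share depends on how many cells of other types a library holds and on depth, since a shallow cDC1 cell can miss the 2 UMIs. Thinned to 5000 UMIs per cell the shares were 2.06, 0.891, 1.30 and 1.15%, beside 2.74, 1.02, 1.61 and 1.56% without thinning over the same cells of at least 5000 UMIs. Thinned to 1500 UMIs they were 0.410, 0.218, 0.440 and 0.208%, so at that depth the Trp53-deleted share was no longer below the Trp53-intact share and the Trp53-deleted ADT share was close to that of Trp53-intact ADT. With 1 library per group no test was possible.

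**Figure D2:**
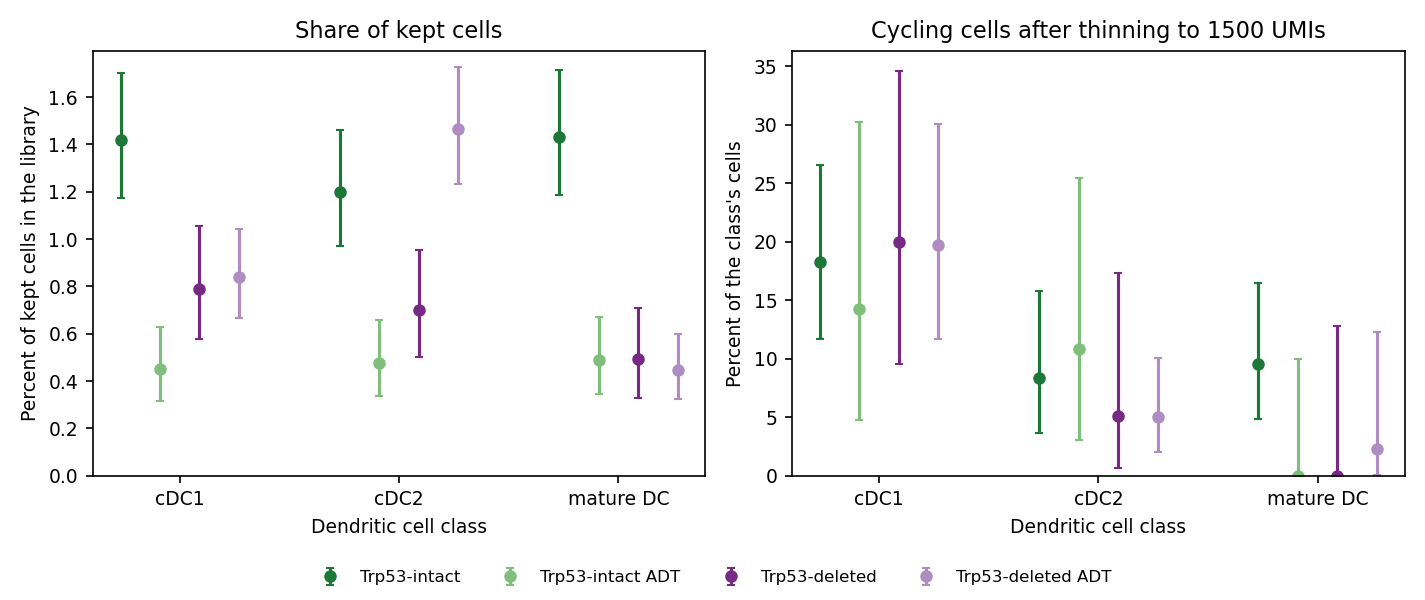
Share of kept cells, and share of cycling cells within each class after thinning, in percent. Both are given for cDC1, cDC2 and mature dendritic cells in each library, with exact 95% binomial bars that cover counting error only. The cDC1 share of kept cells is highest in Trp53-intact (1.42%) and lowest in Trp53-intact ADT (0.452%), while the bars of the share of cycling cDC1 cells overlap.

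With ADT in Trp53-intact mice, cDC1 cells held more RNA of some inflammatory chemokines and immediate early genes and less of heat shock genes, and 1 lineage gene was 2-fold apart. Of 5124 genes with at least 50 UMIs over both libraries, 1.41% were at least 2-fold higher and 1.11% at least 2-fold lower on the log2(CPM + 20) scale, with a median of 0.070. Of 20 measured cytokines and chemokines 5 were higher and 1 lower, with a median of 0.49. Ccl7 and Ccl2, ligands of Ccr2, stood at 18.7, 449.9, 39.2 and 23.3 CPM and 69.3, 737, 107 and 68.6 CPM, so the Trp53-intact ADT library lay above the other 3. The ratios were 3.60 and 3.08 on the log2 scale, with 34.1% and 31.4% of the UMIs from 1 cell. In macrophages of the same libraries Ccl2 was at 1075, 1056, 692 and 814 CPM, level with and without ADT and above the cDC1 cells in each library, and the part of macrophage RNA in the cDC1 value was not tested.

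Il12b stood at 10.3, 109.8, 0 and 7.99 CPM in cDC1, a log2 ratio of 2.098, Il1b ran from 667 to 1363 CPM (1.01) and Tnf from 20.7 to 83.4 CPM (1.35). Cxcl2 was higher by 1.69, with 80.6% of its UMIs in 1 cell. Ccl17 was the lower chemokine, from 34.9 to 1.32 CPM. Neutrophil markers summed to 57.5, 267, 35.8 and 22 CPM, highest in Trp53-intact ADT, where G0s2, S100a9 and S100a8 came for 100%, 75% and 69.4% from 1 cell, and their part in the chemokine values was not tested.

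The 28 dissociation genes split into 8 higher and 9 lower, and into 5 higher and 9 lower with cells weighted equally. Of immediate early genes, Fos (801 to 1813 CPM), Fosb (146 to 544 CPM), Junb (957 to 1994 CPM), Dusp1 (362 to 1149 CPM), Ier3 (72.8 to 517 CPM), Socs3, Nr4a1 and Nfkbia were higher, and Jun was lower (678 to 266 CPM). The orphan receptor Nr4a3, the zinc finger factor Egr3 and Csrnp1, all induced early by stimulation, were higher by 2.04, 2.25 and 1.95. Rilpl2, which links Rab proteins to motors, and Dnase1l3, a nuclease of dendritic cells that cuts DNA in dying cells, were higher by 2.04 and 1.68. The heat shock genes Hspa1a, Hspa1b, Dnajb1, Hsp90aa1 and Hsph1 were lower by -1.74 to -3.53, Hspa1a being measured at 1928, 148, 449 and 26.6 CPM. Over all kept cells Hspa1a was at 1034, 84.3, 204 and 92 CPM, so the lower level with ADT was not limited to cDC1. Both sets of genes are known to respond to tissue dissociation, and the part of handling was not tested.

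Of 26 measured lineage genes in the same comparison, Zeb2 alone was 2-fold apart (15.2 to 63.5 CPM), with a median over the list of 0.11. Irf8 ran from 1414 to 1172 CPM (-0.27), Batf3 from 158 to 160.1 CPM (0.018) and Wdfy4 from 432 to 606 CPM (0.47). No gene of 32 cross-presentation genes and 14 class I genes was 2-fold apart. Pbsn and Tgm4, secretory genes of the prostate epithelium, were lower by -4.05 and -2.23, but 96.4% and 99.3% of their UMIs in Trp53-intact came from 1 cell, and epithelial markers summed to 886, 105, 119 and 136 CPM. Without the top cell of each gene, 14 of the 16 genes named in this comparison were still 2-fold apart, Pbsn and Tgm4 being the others.

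With ADT in Trp53-deleted mice, 3 of 26 lineage genes of cDC1 cells were lower and a small set of interferon-response and stress genes stood apart. Of 5025 genes 0.896% were at least 2-fold higher and 1.17% at least 2-fold lower. No lineage gene was 2-fold higher, and the list had a median of -0.46 against -0.0051 over all genes. Zbtb46, Tlr11 and Cadm1 ran from 92.3 to 25.3 CPM, 71.5 to 18.6 CPM and 197 to 87.2 CPM. Irf8, highest of all libraries in Trp53-deleted, ran from 2365 to 1210.1 CPM (-0.96, ratio 0.480 to 0.545 by counting error), Batf3 from 177 to 198 CPM (0.15) and Wdfy4 from 643 to 548 CPM (-0.22). Ccr2, the receptor for Ccl2 and Ccl7, was at 518, 333, 756 and 297 CPM, lower with ADT, by -1.29.

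Gpr171, a receptor for a neuropeptide, had the largest higher ratio, 2.20, and is described with both genotypes further on. Irf7, a transcription factor that interferon induces, stood at 64.4, 39.7, 63.5 and 233 CPM, highest in Trp53-deleted ADT (1.60), and in cDC2 of the same libraries at 34.3, 97, 63.3 and 271 CPM. Of 24 interferon-response genes Irf7, Rsad2, Ifit3 and Ifit2 were higher and Cxcl9 and Iigp1 lower, and with cells weighted equally 4 were higher and 1 lower. Nfe2l2, the factor of the oxidative stress response, ran from 38.1 to 156 CPM, Ccl4 from 108 to 359 CPM and the oxidase subunit Ncf4 from 112 to 337 CPM. AY036118, Gcnt2 and Grasp were higher by 1.64, 1.56 and 1.54. Lower beside the heat shock pair were Apobec3, which restricts retroviruses (224 to 35.9 CPM), Rnaset2b (151 to 35.3 CPM) and Cd180, a Toll-like receptor homologue (90.0 to 18.6 CPM). Cyp2f2, Sfrp4, Ccl17 and Cxcl9 were also past 2-fold, but 98.2%, 100%, 65.9% and 87.4% of their UMIs came from 1 cell, and without that cell Cyp2f2, Sfrp4 and Cxcl9 were not 2-fold apart in that direction.

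The library pairs of the genotypes share no sample, so genes beyond 2-fold in both were counted. There were 8 genes higher in both, 6 lower in both and 4 in opposite directions, among 4678 genes measured in both. Across those genes the log2 ratios had Pearson's r 0.164 and Spearman's rho 0.0900, a description over genes of 4 libraries, which differ in depth and stress. Gpr171 (ENSMUSG00000050075, chr3:59096448-59101821 on the minus strand) was measured at 139 CPM in Trp53-intact, 466 in Trp53-intact ADT, 47.3 in Trp53-deleted and 289.5 in Trp53-deleted ADT, so both ADT libraries lay above both libraries without ADT. It was higher with ADT in other classes too, with log2 ratios of 0.99 and 2.60 in cDC2, 0.82 and 2.06 in mature cells and 0.77 and 1.76 in macrophages. In each of these classes it passed 2-fold in the Trp53-deleted pair only.

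Nr4a3 and Nr4a2, orphan receptors of the same family, stood at 83.6, 406, 70.4 and 196 CPM and 207, 637, 238 and 513 CPM. In cDC2 the Nr4a3 ratios were 0.39 and -0.81, so there the genotypes had opposite signs, and in macrophages 0.99 and 0.91. Il1b, Cebpb, Rasgef1b, Gpcpd1 and Serpinh1 were the others higher in both, Il1b at 667, 1363, 232 and 557 CPM and Cebpb, a factor of inflammatory gene expression, at 48.2, 116, 23.1 and 87.2 CPM. Serpinh1 drew 86.4% of its UMIs in Trp53-intact ADT from 1 cell. The 6 lower in both were Hspa1a, Hspa1b, Phlda1, Ccl17 and the immunoglobulin genes Igkc and Igha. Hspa1a and Hspa1b are near-identical copies whose reads could be split. Igkc, at 384, 66.2, 99.2 and 10.6 CPM in cDC1, followed its level over all kept cells of 24035, 5980.0, 10779.7 and 1855 CPM, and the part of free RNA was not tested. Reg3g, Dcn, Tnfaip3 and Apod stood 2-fold apart in opposite directions by genotype. In the library where each was higher, 1 cell gave 86.4% of the UMIs of Dcn and 89.3% of those of Apod in the Trp53-intact pair, 79.7% of Reg3g and 50% of Tnfaip3 in the Trp53-deleted pair.

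**Figure D3:**
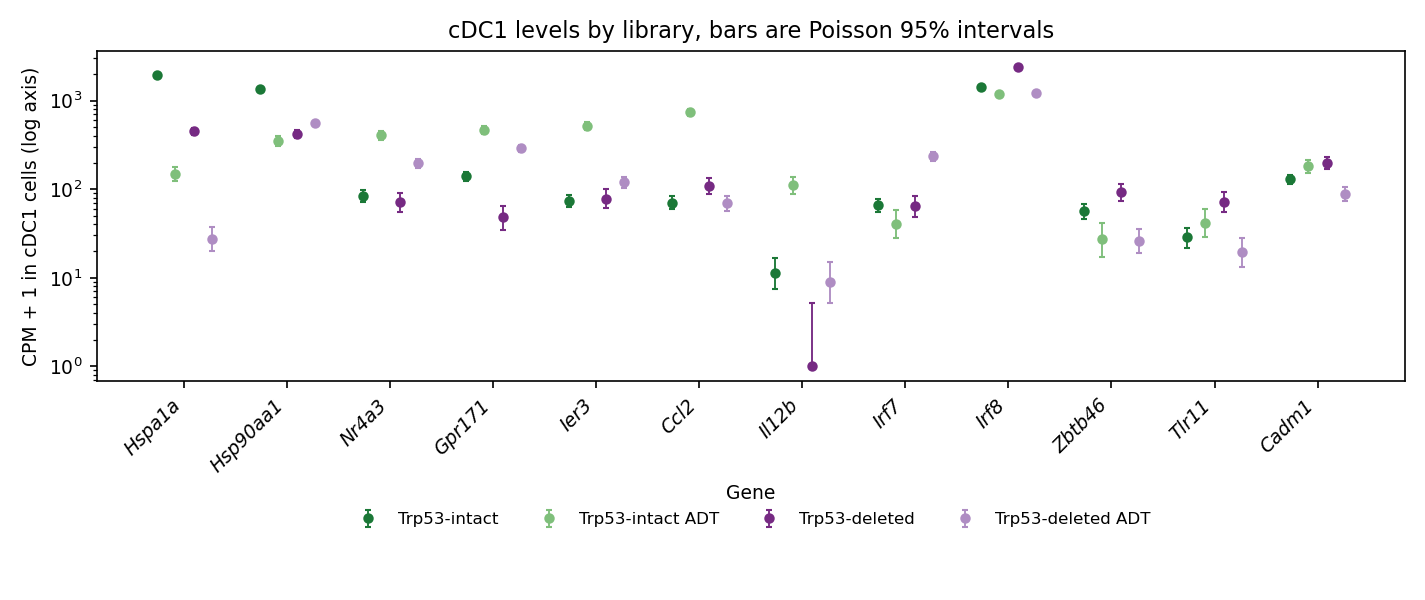
CPM + 1 on a log axis in cDC1 cells of each library for 12 genes, with Poisson 95% bars for counting error. Gpr171 and Nr4a3 are higher in both ADT libraries and Hspa1a is lower, Ccl2 and Il12b are high in Trp53-intact ADT only, and Irf8 is highest in Trp53-deleted.

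**Figure D4:**
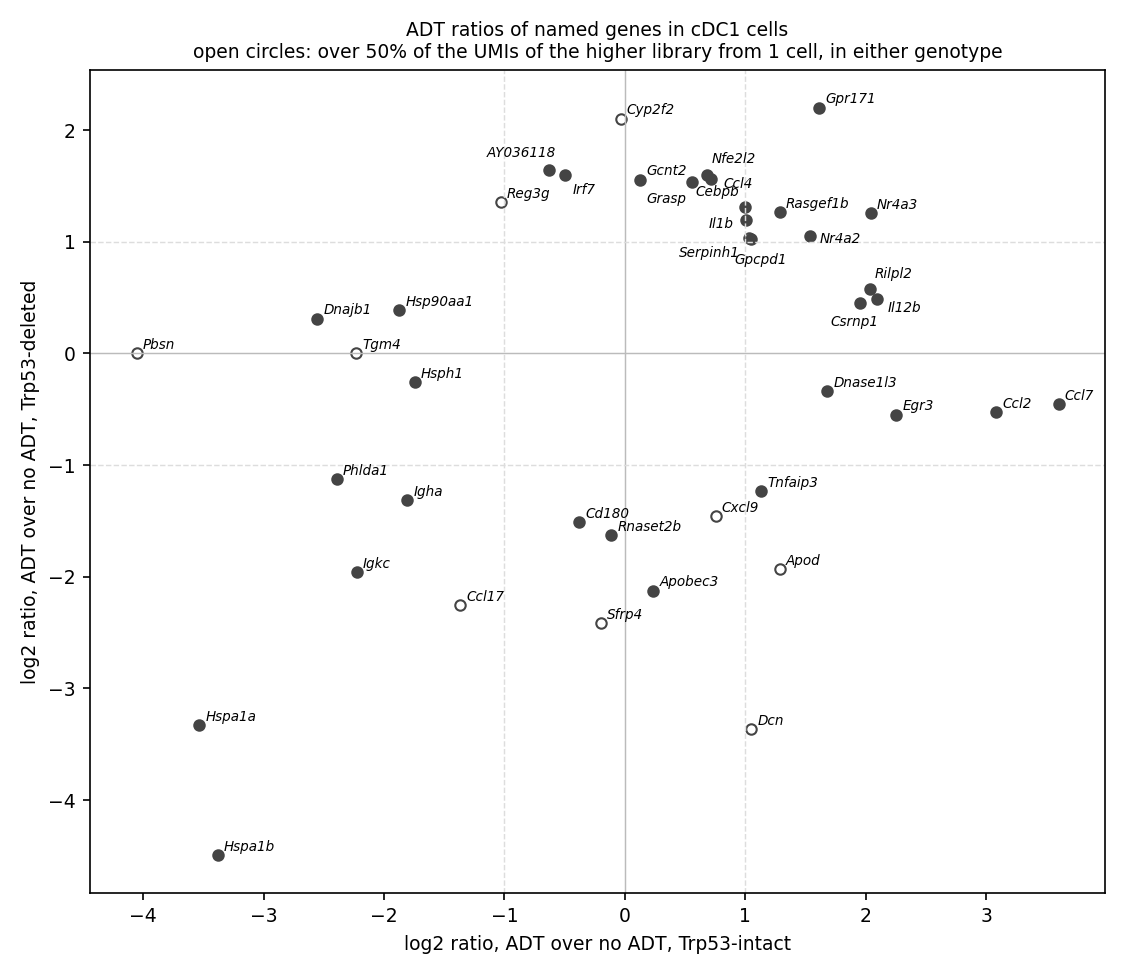
Log2 ratio of ADT over no ADT in cDC1 cells of Trp53-intact mice (horizontal) and Trp53-deleted mice (vertical) for the named genes, with dashed lines at 2-fold and open circles for genes that drew over 50% of their UMIs in the higher library from 1 cell. Gpr171 lies at the upper right (1.61, 2.20), Hspa1a at the lower left (-3.53, -3.33) and Ccl2 near the horizontal axis (3.08, -0.52).

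Without ADT, cDC1 cells of Trp53-deleted mice held less RNA of heat shock genes and of Ccl4 and Il1b than those of Trp53-intact mice. Of 5478 genes 0.968% were at least 2-fold higher and 1.64% at least 2-fold lower. The median over all genes was 0.17, and neither the ratios nor the counts were corrected for that shift. Of 26 lineage genes Zeb2 was higher and 0 were lower, with a median of 0.31. The peptide transporter Tap2 ran from 114 to 256 CPM (1.04). Of 28 dissociation genes 11 were lower and 1 higher (Fosb), with Dnajb1 at -2.80, Atf3 at -2.03 and Hspa1a at -2.06. Of 20 cytokines and chemokines 4 were lower, namely Ccl4, Il1b, Ccl3 and Cxcl10, and 2 higher, Ccl17 and Cxcl9, with a median of -0.33. Ccl4 ran from 733 to 108 CPM (-2.55), Il1b from 667 to 232 CPM (-1.45) and Rgs1, a brake on chemokine receptor signals, from 378 to 50.8 CPM (-2.49).

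AY036118, an annotated locus, ran from 1338 to 147 CPM and Tsc22d3, which glucocorticoids induce, from 147 to 42.7 CPM. Over all kept cells AY036118 ran from 1095 to 136 CPM, Rgs1 from 274 to 84.7 CPM and Dnajb1 from 299.5 to 111 CPM. The lower levels of these genes were thus not limited to cDC1. In all, 3 cell cycle genes were higher, Mki67 (125 to 273 CPM), Rrm1 and Rrm2, beside the histone gene Hist1h2ap (1.54). The number was 2 with high doublet scores left out, 1 with at least 3 UMIs over Xcr1 and Clec9a and 0 with cells weighted equally. Tpm3-rs7, a near-copy of Tpm3 with which it may share reads, was higher by 2.04, and over all kept cells it ran from 12.2 to 72.7 CPM. Of the 10 genes named by size in this comparison, Sfrp4, Ccl17, Cxcl9, Pbsn and Tgm4 drew over 50% of their UMIs from 1 cell, and 5 were still 2-fold apart without that cell.

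With ADT, cDC1 cells of Trp53-deleted mice held less RNA of 9 cytokines and chemokines than those of Trp53-intact mice and more Irf7. Of 4694 genes 0.746% were at least 2-fold higher and 1.41% at least 2-fold lower. Of 18 cytokines and chemokines 9 were lower and 0 higher, with a median of -1.01 against 0.086 over all genes. The 9 were Ccl2 (737 to 68.6 CPM), Il12b (109.8 to 7.99 CPM), Tnf (83.4 to 12 CPM), Il1b (1363 to 557 CPM), Ccl4 (1219 to 359 CPM), Ccl3, Ccl6, Ccl22 and Cxcl2, and Ccl7 outside the list ran from 449.9 to 23.3 CPM. These comparisons share the Trp53-intact ADT library with the ADT comparison in Trp53-intact mice, in which 5 of them and Ccl7 were higher. Beside them 9 of 28 dissociation genes were lower and 0 higher, among them Egr1 (-1.76), Ier3 (-1.95) and Nfkbia (-1.92), and neutrophil markers were lower as given before, and their part was not tested. Irf7 was higher by 2.08 and the mitosis genes Ube2c and Cdca8 by 1.30 and 1.58. Tpm3-rs7 was higher by 1.31, and AC160336.1, an annotated locus, was lower by -2.46. Of 26 lineage genes 1, Zeb2, was lower (-1.14) and 0 higher, with a median of -0.17. With at least 3 UMIs over Xcr1 and Clec9a, 0 lineage genes were 2-fold apart here, in the genotype comparison without ADT and in the ADT comparison in Trp53-intact mice, so Zeb2 was not called in any of them. Cyp2f2 and Hspa1b rested on 1 cell (98.2% and 99.1% of UMIs), and without it neither was 2-fold apart in that direction.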

How the data were processed

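UMI counts per gene and barcode were deposited by the authors, not normalised, as 1 matrix of 30905 genes and 36326 barcodes. The build was mm10, per the submitters' processing notes. These give Cell Ranger 2.1.1 as the tool, but version 3.1.0 stands in the header of the matrix, and which is right is unknown. Per the labels' protocols, prostates were dissociated with collagenase type II and TrypLE, and libraries were made with 10x Chromium 3' chemistry. Barcodes were assigned to libraries by the deposited table of suffixes. Whether counting used strand is not stated.

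Class comparisons used summed counts, TMM scaling and filterByExpr in edgeR 4.0.16 (R 4.3.3), with the 12 rule genes and, against cDC2, Cd209a given no call. Library comparisons used log2 ratios of CPM with a pseudocount of 20 CPM over genes with at least 50 UMIs, and a ratio of 2 or more as the limit. They have no test, because each group is 1 library. Intervals are exact at 95% and cover counting error only. Some list members are counted but not reported by name here. Scripts were tested on simulated data.

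Named genes of the class comparisons were those past the threshold on the same side in every library with the largest fold changes (15 each way against cDC2, 8 each way otherwise). Those of the library comparisons had the largest ratios (8 each way for ADT, 5 each way for genotype) among genes no lower than in all kept cells of that library. Up to 6 members of each of 24 lists and a fixed set of genes were named besides. Members, lists and comparisons were chosen with earlier results of these data known. Other genes were named where a count is small or a caveat needed them, after their values were seen. Scrublet in scanpy 1.11.5 marked 0, 0, 1 and 1 barcodes by its own threshold, so doublets were kept in and the highest scores were left out as an alternative. DESeq2 1.42.0 was another. Leaving out the top cell of a gene and thinning to 5000 UMIs were chosen after seeing the data.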

Additional observations from a re-analysis of the deposited data

Results flagged for a closer look

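The difference in the cDC1 share of kept cells between ADT and no ADT was -0.97 percentage points in Trp53-intact mice and 0.051 in Trp53-deleted mice. The signs are opposite, with 1 library on each side, and the difference between the genotypes was not tested. The intervals of the Trp53-deleted pair overlap. The share there was lower with ADT after thinning to 5000 UMIs (1.30% without and 1.15% with ADT) and to 1500 UMIs (0.440% and 0.208%). The opposite sign thus did not hold at those depths.

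Of 62 differences checked library by library, 2 had 1 library far from the other 3, where chance flags about 1 in 20. A530099J19Rik, higher in cDC1 than in cDC2 in every library, had a log2 ratio of 4.33 in Trp53-deleted ADT and 6.43 to 6.63 in the other libraries. Tlr12 against mature dendritic cells had 2.06 in Trp53-deleted and 3.83 to 3.93 elsewhere. Both genes are low in the class with which they were compared.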

How the results depend on the processing

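With each library left out in turn, genes called ran from 1341 to 1629 against cDC2 (1913 with all), 1076 to 1472 against mature cells (1627) and 3539 to 4397 against macrophages (4618). The value of 1076 came without Trp53-deleted ADT. Without the library block, which pairs the classes, 1342, 1462 and 3487 were called. DESeq2 in place of edgeR called 1289, 1367 and 3937. Testing every gene with at least 1 UMI called 2457 against mature cells, with more genes tested. With a pseudocount of 5 CPM in place of 20, 248, 233, 346 and 177 genes were 2-fold apart in the order in which the library comparisons were given (129, 104, 143 and 101). The ADT comparison in Trp53-deleted mice gave 65 with at least 100 UMIs, with fewer genes tested. The share of these calls that were higher, 43.3% there, was 59.4% with high doublet scores left out and 33.6% with cells weighted equally, and without ADT the genotype share was 37.1% and 53.7% with cells weighted equally, 26.1% with high doublet scores left out and 60.7% with 5 CPM (with ADT 34.7% and 49.2%). Shares of cDC1 were 0.410, 0.218, 0.440 and 0.208% when thinned to 1500 UMIs and 2.06, 0.891, 1.30 and 1.15% when thinned to 5000. Unthinned cycling shares were 31.3% in Trp53-intact and 40.7% in Trp53-deleted ADT. The ratios between libraries that changed sign drew over 50% of their UMIs from 1 cell. With high doublet scores left out, or the top cell left out, Cyp2f2 was -0.075 and -0.062 (ADT in Trp53-deleted mice) and -0.26 and -0.24 (genotype with ADT), and Sfrp4 0.049 and 0.047 (ADT) and -0.21 and -0.20 (genotype without ADT). Without the top cell Cxcl9 was 0.63 (ADT in Trp53-deleted mice) and -0.65 (genotype without ADT), and Hspa1b 0.42 (genotype with ADT). Zbtb46 against mature cells, not called, was 0.0061 without the block and -0.38 to 0.11 with a library left out (positive without Trp53-intact ADT), and Cxcl9 against macrophages, not called, -0.32 to 0.84 (negative without Trp53-deleted). Over single genes and all alternatives tried, 1346 values had the same direction and side of the threshold or lay within the spread, 42 moved, 14 changed sign, 5 gained and 8 lost a call. The 35 cDC1 cells of Trp53-intact ADT limit every comparison that uses them.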
